A study of Mus musculus with 24 samples.

Results

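Tumours labelled recurrent were compared with papillary thyroid cancers (PTC, a differentiated tumour of the hormone-producing follicular cell) across all genes on a mouse expression array. The tissue label alone chose the arrays: 9 recurrent and 4 PTC, 13 of the 24 in the series, which also holds 6 pools of normal thyroid glands and 5 anaplastic thyroid cancers (ATC). RNA from each sample was hybridised to an Affymetrix Mouse430A_2 array, and 12394 genes were read through 1 probe set each. The series title concerns mouse thyroid cancers that escape the loss of BRAF, a kinase of the MAPK cascade, and the receptor Met with its ligand Hgf. For both groups the labels give only the tissue: genotype, strain, Braf allele, the driver of any transgene, agents, age and time are not stated in them. Nor do they say whether each recurrent tumour came from an animal of its own. A p-value here therefore reflects only how these arrays vary, which may be partly technical.

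The follicular cell takes up iodide, attaches it to thyroglobulin and releases hormone, under the control of thyrotropin and of the transcription factors Pax8, Nkx2-1, Foxe1 and Hhex. Papillary cancers keep much of this program and of the epithelial junctions, while less differentiated thyroid cancers lose both. MAPK signalling, which BRAF drives, is read in tumours through feedback genes such as Dusp6 and the Sprouty and Spred families, and Met, once bound by Hgf, feeds into the same cascade.

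In recurrent tumours more genes were lower than higher than in PTC, and the falls reached further. They were led by the granule protease Gzme, the surfactant gene Sftpa1, Dlk1 and the thyroglobulin gene Tg. The rises were led by Sox2. With limma and Benjamini-Hochberg adjustment over all genes at 0.05, 1345 of 12394 genes were called (10.9%), of which 526 were higher in recurrent tumours (4.24%) and 819 lower (6.61%). On the log2 scale, where a difference of 1 is 2-fold, 37 called genes were lower by over 4 and 2 were higher by over 4. The groups did not overlap on any array for 9.56% of genes, 5.51% lower and 4.05% higher. The median difference over all genes was -0.01. The arrays are of whole tumours, so fewer cells of a type and less RNA per cell cannot be told apart in any of these results.

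The 4 PTC arrays were nearly alike (median correlation 0.989) and the recurrent arrays were not (median 0.886, lowest 0.781). The SD within recurrent tumours was the larger one for 97.8% of genes, with a mean over genes of 0.674 against 0.188, although limma assumes 1 spread for both groups. Titles fall into a series that starts with JK, which holds all PTC arrays and recurrent arrays 1 to 3, and bare numbers, which hold recurrent arrays 4 to 9. What the titles stand for is not given. With the title series as a block 1139 genes were called (9.19%), 764 of them among the 1345. Among JK-titled arrays alone 2235 were called (18%), 968 of them shared. As all PTC arrays are JK-titled, both fits estimate the same difference, that of recurrent arrays 1 to 3 against PTC. In the block fit the bare-number arrays add only to the estimate of spread, so these settings are not separate checks. Leaving out 1 PTC array at a time left 814, 609, 643 and 733 calls (6.57%, 4.91%, 5.19% and 5.91%). Leaving out recurrent array 6 gave 2065 (16.7%) and array 3 gave 1959 (15.8%), and leaving out another recurrent array gave 8.29% (array 9), 8.74% (array 8), 9.27% (array 1), 9.67% (array 4) or 11.2% to 11.4%. The bare-number recurrent arrays against PTC gave 19.3%, the 6 recurrent arrays other than 2, 4 and 6 gave 17%, a fit with all 24 arrays 21.8%, array weights per group 27.7% and centring on medians 9.62%. A sign of RNA quality moved with the groups: the signal of Gapdh control probes at the 3' end exceeded that at the 5' end by 1.39 ± 0.23 (SD, n = 4) on the log2 scale in PTC and by 0.25 ± 0.38 (n = 9) in recurrent tumours (exact permutation test, two-sided, p = 0.0014, 0.0028 adjusted over 2 controls). For beta-actin probes the excess was 1.74 ± 0.23 (SD, n = 4) and 0.92 ± 0.37 (n = 9; exact permutation p = 0.0042, also 0.0042 adjusted). The Gapdh excess also differed by title series within recurrent tumours. It was 0.36 to 1.07 on JK-titled and -0.02 to 0.17 on bare-number recurrent arrays, against 1.11 to 1.60 in PTC. For beta-actin these ranges were 0.97 to 1.68, 0.53 to 1.10 and 1.48 to 1.97. Among JK-titled arrays the exact p was 0.0286 for Gapdh, the smallest possible there, and 0.143 for beta-actin. The part of these differences in the gene results was not tested.

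**Figure D1:**
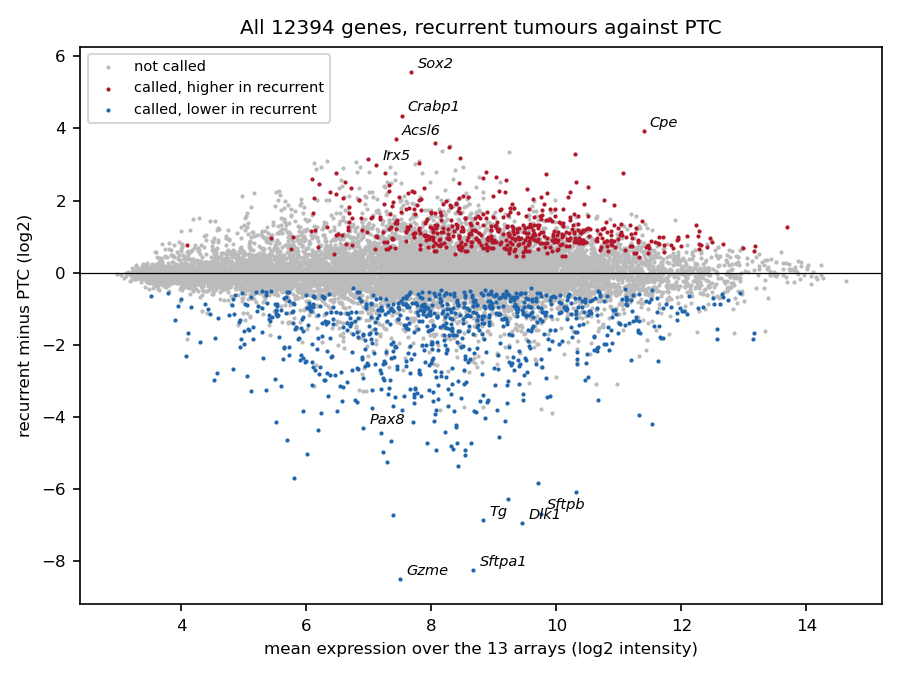
Difference between recurrent tumours and PTC (vertical, log2) against mean expression over the 13 arrays (horizontal, log2 intensity), 1 point per gene. The 526 genes called higher are red, the 819 called lower are blue, and the lower ones reach further from 0, down to Gzme at -8.49 against Sox2 at 5.56.

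Genes of the follicular cell were lower in most recurrent tumours, with the regulator Pax8 and the hormone precursor thyroglobulin (Tg) among them. Of 15 measured genes of this list, 6 fell (40%, against 6.61% of all genes), Dio2 rose and 8 were not called, and the median difference was -0.75. Tg lay at 13.49, 14.24, 13.46 and 13.11 on the PTC arrays and between 4.61 and 14.18 on the recurrent ones, with a median of 5.11. Recurrent array 4 was within the PTC range and recurrent array 1 stood at 11.31, while the other 7 were at 5.86 or below. Tg thus fell by 6.86 ± 1.64 (SE; limma adjusted p = 0.0171), a call lost with the title series as a block (limma adjusted p = 0.0897) and without PTC array 1, 2 or 3 (0.0501 to 0.0667).

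Pax8, which turns on the Tg gene, was at 9.26, 10.15, 10.19 and 9.94 in PTC. In recurrent tumours it ranged from 4.76 to 7.70 with a median of 5.42. All 9 recurrent arrays lay below all PTC arrays, the highest being array 4, and the fall of 4.30 ± 0.43 (limma adjusted p = 4.29e-05) was called under every alternative setting tried. Hhex, a homeobox factor of the developing gland, fell by 4.02 ± 0.57 (limma adjusted p = 0.000692) and was likewise lower on every recurrent array. Iyd, which recovers iodide from hormone precursors, fell by 4.96 ± 0.89 (limma adjusted p = 0.00331), again with array 4 highest at 9.88, close to the lowest PTC value of 9.95.

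Slc26a4, an anion exchanger that passes iodide to the follicle lumen, varied within PTC, at 8.69, 7.05, 6.46 and 5.56, and lay between 4.14 and 5.07 in recurrent tumours. The groups did not overlap, and its fall was 2.36 ± 0.41 (limma adjusted p = 0.00265). Tshr, the thyrotropin receptor, fell by 1.80 ± 0.35 (limma adjusted p = 0.00522, and 0.0565 with the title block), while a second probe set of the gene differed by only -0.24. Dio2, a deiodinase that activates thyroid hormone, rose by 1.90 ± 0.45 (limma adjusted p = 0.0155), which was lost with the title block (0.0742) and without PTC array 3 (0.0663), and its other probe sets differed by 0.70 and 0.48. Not called were the lineage factor Nkx2-1, at -0.41 ± 0.18 (limma adjusted p = 0.17), and the iodide importer Slc5a5, at -0.01 ± 0.14 (limma adjusted p = 0.971). Both were dim on all 13 arrays, at 6.23 or below and 7.03 or below. Normal thyroid pools were little brighter, at 6.36 ± 0.21 and 7.32 ± 0.25 (SD, n = 6). These probe sets may thus read the genes poorly, and the lack of a call says little about either. Cdh16, a cadherin of thyroid and kidney epithelium that was chosen after its values were seen, fell by 3.25 ± 0.38 (limma adjusted p = 0.000162), with recurrent array 4 highest at 7.88.

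Genes of lung surfactant, best known from alveolar cells, were far lower in recurrent tumours than in PTC. Of 15 measured airway and alveolar genes, 6 fell (40%, against 6.61% of all genes), Sox2 rose (6.7%, against 4.24%) and 8 were not called. The median difference was -0.97, and 5 of the 15 differences were above 0. All 6 falls were also called with the title block, among JK-titled arrays alone and without any 1 PTC array. Sftpa1 and Sftpb encode surfactant proteins, and in the lung the factor Nkx2-1 is known to bind sites with the core CTCAAG in such genes. Their promoters, from 250 bases before to 50 after the start in RefSeq's annotation of GRCm38.p6, are printed 5' to 3' because both genes are among the 15 largest falls, with CTCAAG, read on both strands (CTTGAG), in capitals. Sftpa1 lies at chr14:41131538-41131837 on the + strand and Sftpb at chr6:72304360-72304659 on the + strand.
Sftpa1: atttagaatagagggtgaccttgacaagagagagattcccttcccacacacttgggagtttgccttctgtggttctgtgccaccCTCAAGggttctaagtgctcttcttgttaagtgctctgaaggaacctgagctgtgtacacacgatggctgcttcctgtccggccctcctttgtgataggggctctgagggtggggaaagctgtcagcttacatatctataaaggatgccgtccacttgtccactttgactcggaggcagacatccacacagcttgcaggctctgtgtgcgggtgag
Sftpb: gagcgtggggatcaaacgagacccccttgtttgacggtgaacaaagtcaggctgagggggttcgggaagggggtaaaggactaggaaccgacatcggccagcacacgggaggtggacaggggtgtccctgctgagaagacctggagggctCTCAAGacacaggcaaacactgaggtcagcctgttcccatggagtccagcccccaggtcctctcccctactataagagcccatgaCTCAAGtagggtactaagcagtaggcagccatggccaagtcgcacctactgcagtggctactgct
The letters occur 1 time in the Sftpa1 window and 2 times in that of Sftpb. Of 9 promoter records in the table for genes of this list, 4 hold them (44.4%), against 15.9% of all 32851 promoters searched. A match describes the letters and shows no binding.

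Sftpb lay at 14.40, 14.41, 14.43 and 14.25 on the PTC arrays and from 6.95 to 8.33 on the recurrent arrays, with a median of 7.81. Every recurrent array was lower than every PTC array by a wide margin, and normal pools, at 7.62 ± 0.33 (SD, n = 6), were in the recurrent range. The fall was 6.68 ± 0.26 (limma adjusted p = 9.59e-09). Sftpa1 was at 14.34, 14.44, 14.29 and 14.49 in PTC and from 4.73 to 8.40 in recurrent tumours, with a median of 5.74. It fell by 8.26 ± 0.67 (limma adjusted p = 7.03e-06), and its other probe set by 8.54, so 2 sets of probes gave a similar large difference. Detection calls were not used here and array signals are compressed at both ends of the scale, so differences that start or end near the dimmest or brightest values are given as signal differences only and may understate the change in RNA.

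Sftpd, a surfactant collectin, also fell, by 6.07 ± 1.19 (limma adjusted p = 0.00587), but unevenly: PTC arrays held 14.45, 14.52, 14.50 and 14.58, and recurrent arrays ranged from 4.96 to 12.17 around a median of 8.93, with arrays 5 and 6 highest. Napsa, an aspartic protease that processes surfactant protein B, fell by 5.84 ± 0.53 (limma adjusted p = 1.9e-05). Ager, a receptor typical of flat alveolar cells, fell by 4.81 ± 0.36 (limma adjusted p = 3.85e-06), and the lipid transporter Abca3 fell by 2.06 ± 0.29 (limma adjusted p = 0.000665). For each of these genes no recurrent array reached the lowest PTC array. Normal pools were above all recurrent arrays for Napsa (11.86 ± 0.58, SD, n = 6), Ager (12.24 ± 0.26) and Abca3 (10.99 ± 0.15). For Sftpa1 and Sftpd the pools were low, at 5.27 ± 0.98 and 6.57 ± 1.39. Slc34a2, the phosphate transporter of alveolar cells, chosen after its values were seen, fell by 3.60 ± 0.25 (limma adjusted p = 1.58e-06). Sftpc, whose product is the most lung-restricted surfactant protein, was dim in both groups, from 6.09 to 6.94 in PTC and from 5.54 to 8.26 in recurrent tumours, and did not pass the test (0.19 ± 0.48, limma adjusted p = 0.856).

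Sox2, a transcription factor of airway and stem cells, showed the largest rise of the comparison. It was at 3.76, 3.76, 3.99 and 3.82 in PTC, and between 3.65 and 11.31 in recurrent tumours, with a median of 9.73. Recurrent array 6, the lowest, was at the PTC level, and the other 8 lay at 8.58 or above. The rise was 5.56 ± 1.10 (limma adjusted p = 0.00623) and held under all settings except a test against a minimum of 2-fold. ATC arrays, outside this comparison, were at 10.40 ± 0.84 (SD, n = 5).

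**Figure D2:**
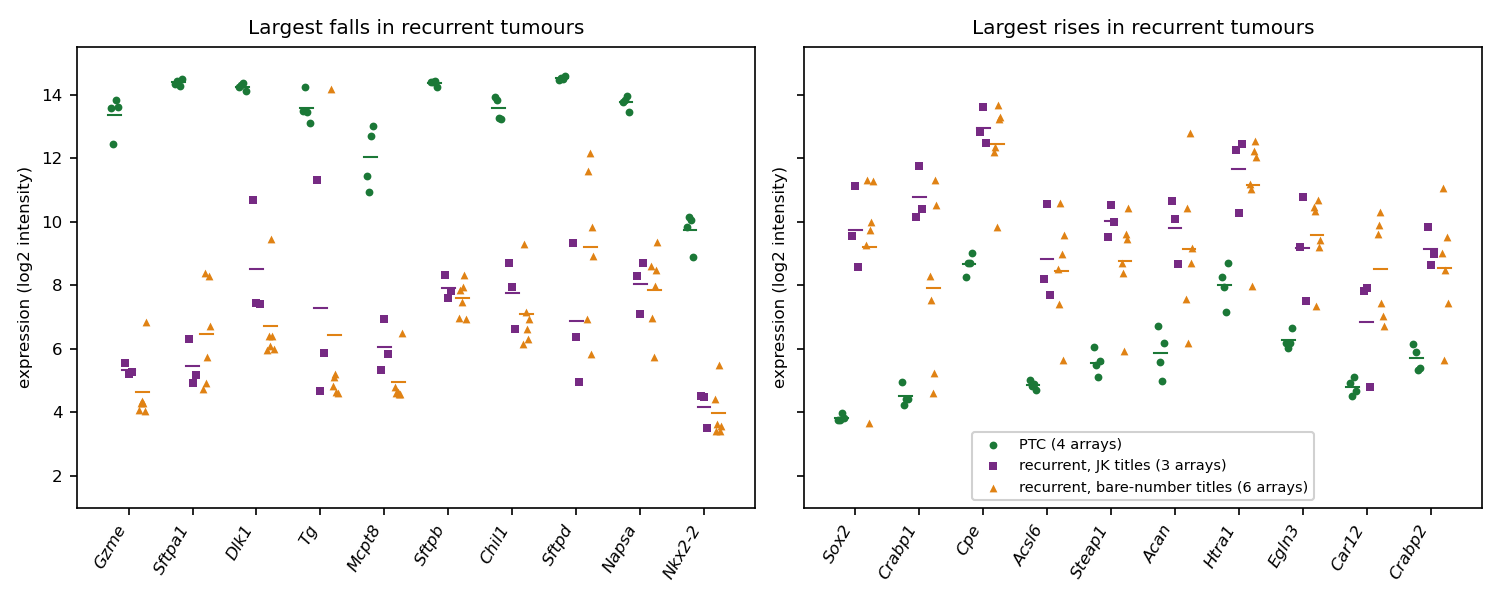
Expression (log2 intensity) on each array for the 10 largest falls (left) and the 10 largest rises (right) among called genes; points are arrays and short lines are means of the 4 PTC, the 3 recurrent JK-titled and the 6 recurrent bare-number arrays. For Gzme, Sftpa1, Sftpb and Napsa all recurrent arrays lie far below PTC, for Tg array 4 at 14.18 lies among the PTC arrays, and for Sox2 array 6 at 3.65 lies at the PTC level.

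The largest fall of all was that of Gzme, which encodes granzyme E, a serine protease of lymphocyte granules. PTC arrays stood at 13.59, 12.44, 13.84 and 13.62, and recurrent arrays between 4.05 and 6.85 with a median of 4.36. The fall was 8.49 ± 0.48 (limma adjusted p = 2.03e-07), with the recurrent arrays near the normal pools (4.63 ± 0.21, SD, n = 6) and ATC arrays at 10.96 ± 1.57 (SD, n = 5). The neighbouring granzyme genes are close copies of each other, so probes may not separate them. Mcpt8, a protease of basophils, fell by 6.72 ± 0.52 (limma adjusted p = 4.9e-06), from 11.45, 10.94, 12.71 and 13.01 in PTC to between 4.57 and 6.93.

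Of 15 measured granule proteases, 2 fell (13.3%, against 6.61% of all genes), Cma1 and Mcpt4 rose (13.3%, against 4.24%) and 11 were not called. On chromosome 14, where Mcpt8 lies beside mast cell proteases, Cma1 (mast cell chymase) rose by 1.83 ± 0.45 (limma adjusted p = 0.0196) and Mcpt4 by 1.00 ± 0.28 (limma adjusted p = 0.0349), while Mcpt1, Mcpt2 and Ctsg were not called. Cma1 was lost without PTC array 1, 2 or 3 (limma adjusted p = 0.0584 to 0.0835), and Mcpt4 without any 1 of the 4 PTC arrays or recurrent array 9, among JK-titled arrays and with the title block (0.0579 to 0.108).

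On chromosome 12, 3 neighbouring genes of an imprinted stretch fell. Dlk1, a membrane protein of fetal and precursor cells, was at 14.24, 14.29, 14.36 and 14.11 in PTC and between 5.98 and 10.68 in recurrent tumours, with a median of 6.42. Arrays 1 and 7 kept the most, at 10.68 and 9.46. The fall was 6.93 ± 0.79 (limma adjusted p = 0.000135), to near the normal pools at 6.53 ± 0.31 (SD, n = 6). The noncoding RNAs that follow it on the chromosome fell too, Meg3 by 4.19 ± 0.75 (limma adjusted p = 0.00339) and Rian, chosen after its values were seen, by 4.55 ± 0.80 (limma adjusted p = 0.00292). Among 12 measured genes of the imprinted network Dlk1 and Meg3 were the only ones called (16.7%, against 6.61% of all genes lower). The list median was -0.63, and 2 of the 12 differences were above 0. The 4 other probe sets of Meg3 gave differences from -5.09 to -2.71.

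Further genes among the largest falls have no list in common. Chil1, a secreted chitinase-like protein, fell by 6.26 ± 0.53 (limma adjusted p = 1.16e-05). Nkx2-2, a homeobox factor of neural and endocrine cells, fell by 5.69 ± 0.39 (limma adjusted p = 1.49e-06), from 8.88 to 10.15 in PTC to 3.40 to 5.48. Scg5, a chaperone of a prohormone convertase, fell by 5.25 ± 0.90, Vash2, a vasohibin, by 5.06 ± 0.45 and the crystallin Crygn by 5.01 ± 0.27 (limma adjusted p = 0.00257, 1.6e-05 and 1.81e-07). For all 5 genes the groups did not overlap. Col9a1, a cartilage collagen chain, was uneven: it fell by 5.36 ± 1.32 (limma adjusted p = 0.02), yet recurrent array 7, at 13.22, lay above all PTC arrays (11.64 to 12.47). It was not called without any 1 of the 4 PTC arrays (limma adjusted p = 0.0525 to 0.0672), with the bare-number arrays against PTC (0.0593), without recurrent arrays 2, 4 and 6 (0.0543), or as a mean of its probe sets (0.0645). Array 7 also stood 4.26 above the PTC mean over the whole list of trachea and cartilage genes, the other recurrent arrays at most 1.93 above it.

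The next 3 genes, known from vitamin D and calcium handling, were picked after their values were seen, and no list of such genes was counted. Cyp24a1, which degrades vitamin D, fell by 4.64 ± 0.25 (limma adjusted p = 1.81e-07), and Cyp27b1, which activates it, by 4.13 ± 0.40 (limma adjusted p = 2.9e-05). Trpv6, an epithelial calcium channel, was at 10.18, 10.55, 10.88 and 10.75 in PTC and between 5.55 and 6.41 in recurrent tumours, a fall of 4.66 ± 0.19 (limma adjusted p = 9.59e-09). No recurrent array overlapped PTC for any of the 3. A second probe set of Cyp24a1 differed by -0.61 only.

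After Sox2, the largest rises were those of Crabp1, Cpe and Acsl6. Cpe, carboxypeptidase E, which trims peptide hormones, was at 8.26, 8.72, 8.69 and 9.02 in PTC and between 9.84 and 13.68 in recurrent tumours, with a median of 12.81. All recurrent arrays were above PTC, array 6 the least, and the rise was 3.94 ± 0.56 (15.3-fold, limma adjusted p = 0.000735), although its second probe set differed by 0.41. Irx5 and Foxc1, factors of tissue patterning, rose by 3.0 ± 0.42 (limma adjusted p = 0.000665) and 2.75 ± 0.46 (limma adjusted p = 0.00207). Acsl6, a fatty acid activating enzyme, rose by 3.71 ± 0.75 (limma adjusted p = 0.0067), and the membrane protein Steap1 by 3.61 ± 0.67 (limma adjusted p = 0.00431), in which array 6, at 5.92, fell within the PTC range of 5.12 to 6.05.

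Crabp1 and Crabp2 hold retinoic acid in the cytoplasm. Crabp1 was at 4.95, 4.24, 4.42 and 4.41 in PTC and ranged from 4.60 to 11.74 in recurrent tumours, with a median of 10.16. Arrays 6 and 7, at 4.60 and 5.24, were near PTC, and the rest lay at 7.54 or above. Its rise of 4.36 ± 1.22 (limma adjusted p = 0.0368) was lost without any 1 of the 4 PTC arrays, without recurrent array 1, 8 or 9, and with the bare-number arrays alone against PTC (limma adjusted p = 0.0589 to 0.115). Crabp2 rose by 3.04 ± 0.73 (limma adjusted p = 0.0166; 0.0537 to 0.0661 without PTC array 2, 3 or 4). Of 12 measured retinoid genes these 2 and the receptor Rara rose (25%, against 4.24% of all genes), Rara by 0.52 ± 0.15 (limma adjusted p = 0.0456, and 0.151 with the title block), and without PTC array 2, 3 or 4 none of the list was called higher. The count was 1 without PTC array 1 or recurrent array 8 or 9.

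Htra1, a secreted protease, rose by 3.30 ± 0.72 (limma adjusted p = 0.0103, and 0.0509 without PTC array 3), with array 6 at the PTC level. The guidance protein Ntn1 rose by 2.79 ± 0.60 (limma adjusted p = 0.00966, and 0.0823 with the title block), its other probe set by 0.52. Acan, the cartilage proteoglycan, rose by 3.48 ± 0.92 (limma adjusted p = 0.0281), with array 7 highest at 12.78. That call was lost without any 1 PTC array, with the bare-number arrays and with the title block (limma adjusted p = 0.0518 to 0.108). Serpina1b, an antitrypsin gene with close copies that probes may not separate, rose by 2.76 ± 0.64 (limma adjusted p = 0.0146), not called with the block (0.147), among JK-titled arrays (0.0723) or without PTC array 1 or 2 (0.0535 and 0.0512).

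Enzymes completed the list. Egln3, the prolyl hydroxylase that marks hypoxia-inducible factors and is itself induced by them, rose by 3.18 ± 0.62 (limma adjusted p = 0.00538), with all recurrent arrays above PTC. The carbonic anhydrase Car12 rose by 3.14 ± 0.83 (limma adjusted p = 0.0276) and Gsto1, a glutathione transferase, by 2.75 ± 0.69 (limma adjusted p = 0.0221). Car12 was lost with the title block (limma adjusted p = 0.211), among JK-titled arrays (0.0976) and without any 1 PTC array (0.0694 to 0.095). Gsto1 was lost with the block (limma adjusted p = 0.119) and without any 1 PTC array (0.0529 to 0.0758).

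Junction genes and simple keratins were lower in most recurrent tumours, and the extent differed between arrays. All 21 measured epithelial adhesion genes had differences below 0, with a median of -2.03, and 8 of them fell (38.1%, against 6.61%). The largest fall was that of Dsg2, a desmosomal cadherin, at 11.77, 12.05, 12.04 and 11.92 in PTC and between 4.14 and 9.82 in recurrent tumours (median 7.22). It fell by 4.92 ± 0.88 (limma adjusted p = 0.00329), with no overlap. Its 5 other probe sets gave -4.44 to -1.13. The tight junction claudins Cldn4 and Cldn3 fell by 3.59 ± 0.77 and 3.42 ± 0.78 (limma adjusted p = 0.0101 and 0.0131), and the desmosomal plakophilin Pkp2 fell by 2.38 ± 0.55 (limma adjusted p = 0.0146). Cldn3 was lost without PTC array 2 or 3 (limma adjusted p = 0.0503 and 0.0541) and Pkp2 without PTC array 2, 3 or 4 (0.0528 to 0.0579).

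The best known members did not pass the test. Cdh1 (E-cadherin) was at 12.02, 12.09, 12.20 and 12.08 in PTC and between 6.37 and 12.35 in recurrent tumours, with a median of 10.31. Arrays 2 and 3 were lowest, at 6.37 and 7.89, and array 6 was above all PTC arrays, so that the difference was -2.26 ± 0.89 (limma adjusted p = 0.127). Without array 6 the limma adjusted p was 0.0484. Epcam was likewise highest on array 6, at 13.26, and lowest on arrays 3 and 2, at 6.43 and 6.48 (-3.10 ± 1.13, limma adjusted p = 0.0993, and 0.0283 without array 6). Over the whole list, arrays 5 and 6 stood at -0.07 and -0.08 relative to the PTC mean, and arrays 2 and 3 were lowest, at -3.69 and -3.40. With 1 PTC array left out the count of called members was 2 to 4, without recurrent array 1, 8 or 9 it was 5, without array 6 it was 15, and among JK-titled arrays alone it was 18. The bare-number arrays against PTC gave 4.

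Simple keratins, filament proteins of glandular epithelium, had differences below 0 for all 5 measured genes. Krt7 fell by 3.44 ± 1.00 (limma adjusted p = 0.0437) and Krt19 by 3.53 ± 1.03 (limma adjusted p = 0.0435), which is 40% of the list, against 6.61% of all genes. Neither call held without any 1 PTC array (limma adjusted p = 0.09 to 0.134), nor without several recurrent arrays: 1, 3, 7 or 8 for Krt7 and 1, 2, 3, 7, 8 or 9 for Krt19. Both were also lost with the bare-number arrays (limma adjusted p = 0.0836 and 0.0898) and Krt19 with the title block (0.0503). Krt8 (-1.0 ± 0.55, limma adjusted p = 0.282) and Krt18 (-1.69 ± 0.74, limma adjusted p = 0.17) were not called. On recurrent arrays 3, 6 and 9 both lay at or near the PTC values. Array 2 came next, at 13.08 and 12.74, against lowest PTC values of 13.39 and 12.81. Keratins of stressed and stratified epithelium and cornified envelope genes leaned upward: 11 of 13 measured had differences above 0, with a median of 1.86. Relative to the PTC mean over this list, recurrent arrays 4 and 5 stood at 4.40 and 4.37 and the other 7 between -0.91 and 2.14. Limma called 1 of them, as lower (7.7%, near the 6.61% of all genes), with 2 at an unadjusted p under 0.05. That gene, Tgm1, a transglutaminase of the envelope, fell by 3.80 ± 0.89 (limma adjusted p = 0.0153). It was lost with the title block (limma adjusted p = 0.0679) and without PTC array 2, 3 or 4 (0.0503 to 0.0608). Krt6a, a keratin of stressed epithelium, was 3.37 ± 1.25 higher without passing the test (limma adjusted p = 0.104), at 13.72 on array 4 and 6.01 on array 7, and its copy Krt6b may share probes.

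Genes of mesenchymal transition leaned the other way without passing the test. All 18 measured had differences above 0 (median 1.10, against 49.3% of all genes above 0), and limma called 0 of them after adjustment, with 8 at an unadjusted p under 0.05 (25.5% of all genes were). Twist2, a transcription factor of mesenchyme, came closest: it was at 5.52 to 5.97 in PTC and 6.11 to 11.08 in recurrent tumours, with no overlap, and the difference was 2.22 ± 0.69 (limma adjusted p = 0.0556). Prrx1, another such factor, was at 1.73 ± 0.55 (limma adjusted p = 0.0602), and Vim, the mesenchymal filament, at 0.71 ± 0.35 (limma adjusted p = 0.232). Without array 6 the limma adjusted p was 0.0201 for Twist2, 0.00659 for Prrx1 and 0.0428 for Vim. Relative to the PTC mean over the list, array 6 stood at -0.86 and the other 8 recurrent arrays at 1.04 to 1.88.

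**Figure D3:**
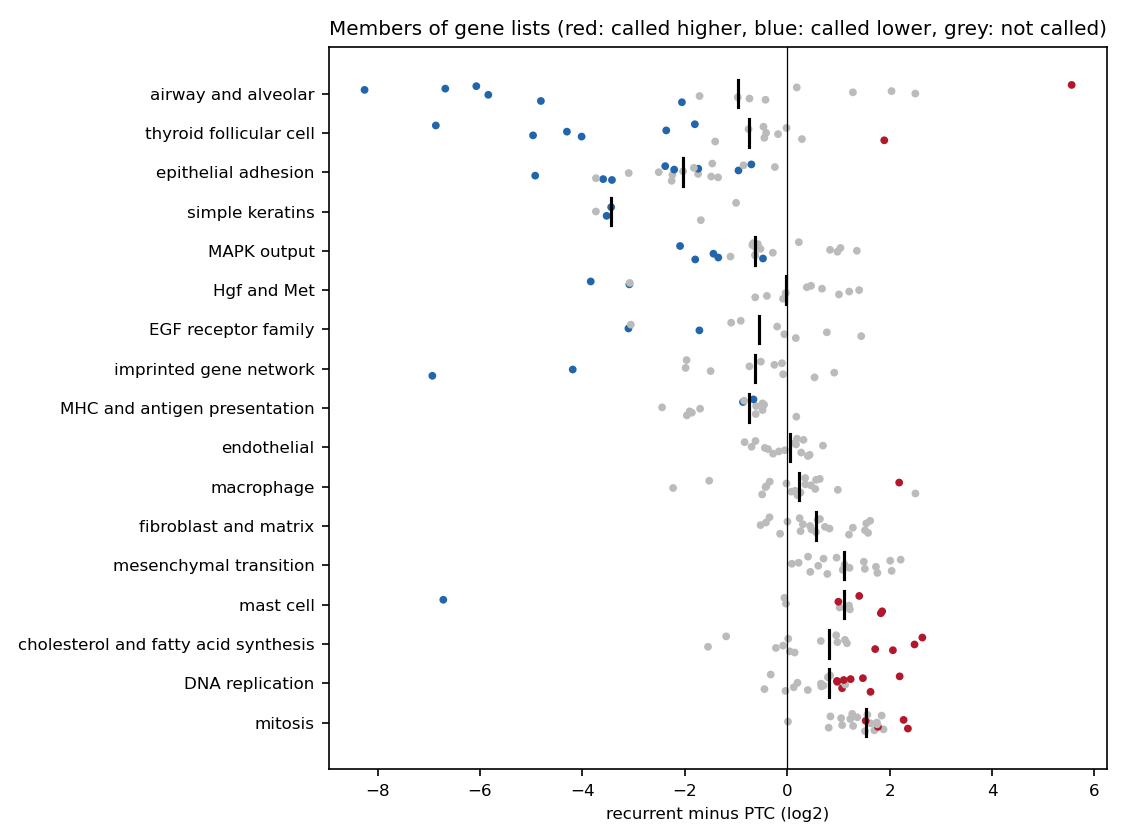
Difference between recurrent tumours and PTC (horizontal, log2) for every measured member of 17 gene lists, 1 point per gene, with the list median as a black bar. All members lie below 0 for epithelial adhesion (median -2.03) and above 0 for mitosis (median 1.53) and mesenchymal transition (median 1.10), and called members are coloured.

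Braf itself, the gene at the head of the studied pathway, was not called. It lay at 7.81, 7.95, 7.58 and 7.78 in PTC, and between 5.62 and 11.14 in recurrent tumours with a median of 5.93. Array 2 held 11.14, far above PTC, and the other 8 lay below all PTC arrays, at 7.14 or less. The difference was -1.04 ± 0.82 (limma adjusted p = 0.476). Without array 2 it was -1.59 and called (limma adjusted p = 0.00522). With the title block it was 0.22 (limma adjusted p = 0.91). Whether the probes read an introduced Braf copy besides the mouse gene is not stated in the labels. ATC arrays were at 11.31 ± 0.72 (SD, n = 5) and normal pools at 6.25 ± 0.29 (SD, n = 6). Among 11 genes from Ras to Erk, Nras rose by 0.73 ± 0.17 (limma adjusted p = 0.0133, and 0.0682 without PTC array 2), and the other 10 were not called. That is 9.1% of the list called higher, against 4.24% of all genes.

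Output genes of the MAPK cascade were lower where they were called. Of 19 measured, 5 fell (26.3%, against 6.61% of all genes), 14 were not called, and the median difference was -0.62. Spred1, an inhibitor of Ras signalling that the cascade induces, was at 11.83, 12.15, 12.31 and 12.12 in PTC and 8.78 to 11.34 in recurrent tumours (median 9.73). It fell by 2.09 ± 0.43 (limma adjusted p = 0.00706), without overlap. Ccnd1, the cyclin D1 that carries mitogen signals into the cell cycle, was at 12.88, 12.63, 13.04 and 13.10 in PTC and 10.30 to 11.99 in recurrent tumours, a fall of 1.80 ± 0.33 (limma adjusted p = 0.00367). Dusp6, the phosphatase that switches Erk off, fell by 1.35 ± 0.32 (limma adjusted p = 0.0167), with all recurrent arrays below PTC, and the transcription factor Etv4 by 1.44 ± 0.39 (limma adjusted p = 0.033).

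These calls were not equally stable. Dusp6 was lost with the title block (limma adjusted p = 0.12) and without PTC array 2, 3 or 4 (0.054 to 0.0672). Etv4 was lost with the block (limma adjusted p = 0.295), among JK-titled arrays (0.155), without any 1 PTC array (0.0758 to 0.0996) and without recurrent array 4 (0.0525). The list had 2 called members with the block, 2 or 3 without 1 PTC array, and 3 without recurrent array 4. Array 2, which held the high Braf value, also had the highest Spry4, at 8.67 against 5.08 to 5.44 in PTC and 6.06 or less on the other recurrent arrays (difference over all arrays 0.23 ± 0.62, limma adjusted p = 0.868). Relative to the PTC mean its mean over the list was 0.77, and those of the other recurrent arrays were -1.26 to -0.01.

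**Figure D4:**
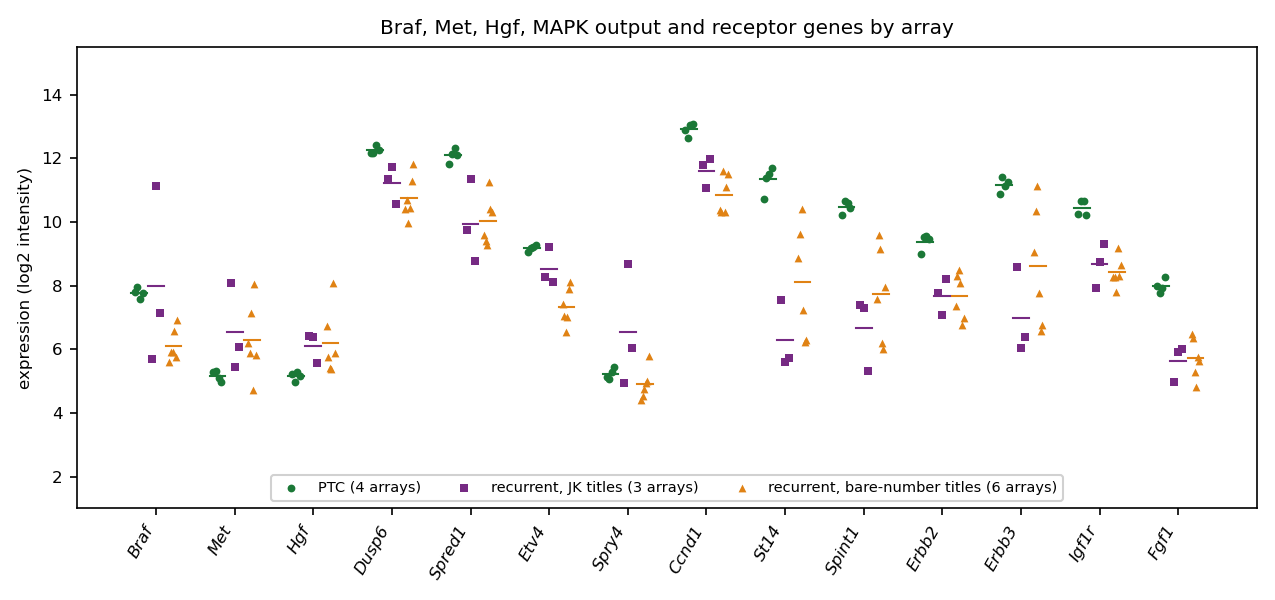
Expression (log2 intensity) by array for Braf, Met, Hgf, MAPK output genes, proteases and inhibitors around Hgf, and receptor genes; points are arrays and short lines are means of the 4 PTC, 3 recurrent JK-titled and 6 recurrent bare-number arrays. Braf and Spry4 each have 1 high recurrent array, array 2 at 11.14 and 8.67, and Met is high on recurrent arrays 1 and 8.

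Met, the receptor named in the series title, was at 5.29, 5.33, 5.09 and 4.98 in PTC and between 4.73 and 8.10 in recurrent tumours, with a median of 6.08. Arrays 1 and 8 were highest, at 8.10 and 8.06, array 6 followed at 7.15, and array 7 was below all PTC arrays. The difference of 1.21 ± 0.55 did not pass the test (limma adjusted p = 0.184). Hgf, its ligand, was at 5.24, 4.97, 5.30 and 5.16 in PTC and 5.37 to 8.08 in recurrent tumours (median 5.88). All 9 recurrent arrays lay above all PTC arrays, array 8 the furthest, but the difference of 1.01 ± 0.41 was not called either (limma adjusted p = 0.142). Arrays 8 and 1 thus had the highest Met, and array 8 the highest Hgf. A fit with all 24 arrays, which takes in the smaller spread of the other groups, called both (limma adjusted p = 0.0488 for Met and 0.0322 for Hgf).

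Around Hgf, the membrane protease matriptase (St14), which can cut it into its active form, fell by 3.84 ± 0.83 (limma adjusted p = 0.0104). Its inhibitor Spint1 fell by 3.08 ± 0.67 (limma adjusted p = 0.0104), and the related Spint2, at -3.07 ± 0.97, was not called (limma adjusted p = 0.0599). For St14 and Spint1 no recurrent array reached PTC, and arrays 5 and 6 came nearest, the arrays whose means over the epithelial adhesion list were closest to PTC. Of 13 genes of this list 2 were called, both lower (15.4%, against 6.61% of all genes). Of 10 genes beside Met on chromosome 6, Met included, limma called 0, with 2 at an unadjusted p under 0.05. Over all genes 10.9% were called and 25.5% had an unadjusted p under 0.05, so 0 in so short a list says little.

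Among other growth factor receptors, Igf1r, the insulin-like growth factor receptor, was at 10.24, 10.67, 10.66 and 10.22 in PTC and 7.80 to 9.32 in recurrent tumours, and fell by 1.95 ± 0.27 (limma adjusted p = 0.000665). Its other probe set differed by -0.67. Erbb2 fell by 1.71 ± 0.32 (limma adjusted p = 0.00461) with no overlap. Its partner Erbb3 fell by 3.10 ± 0.86 (limma adjusted p = 0.0353), though array 6, at 11.12, was in the PTC range and a second probe set differed by -0.21. The Erbb3 call was lost without any 1 PTC array, without recurrent array 8 or 9, and with the bare-number arrays (limma adjusted p = 0.0582 to 0.113). Egfr, at -0.06 ± 0.15 (limma adjusted p = 0.87), was not called. The ligand Fgf1 fell by 2.30 ± 0.29 (limma adjusted p = 0.000348), and Inhbb, a subunit of activin B, by 2.65 ± 0.45 (limma adjusted p = 0.00251), with a second probe set of Inhbb at -0.29.

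Genes of DNA replication rose in part, and those of mitosis were higher on nearly every array but mostly missed the threshold. Of 20 measured replication genes 8 rose (40%, against 4.24%), and the median difference was 0.82. Rrm2, a subunit of the enzyme that makes deoxynucleotides, was at 8.79, 8.23, 7.61 and 8.69 in PTC and 9.50 to 11.37 in recurrent tumours, a rise of 2.20 ± 0.35 (limma adjusted p = 0.00163) with no overlap. The clamp loader subunits Rfc4 and Rfc3 rose by 1.48 ± 0.29 and 1.24 ± 0.28 (limma adjusted p = 0.00645 and 0.0137), and the primase subunit Prim1 by 1.11 ± 0.24 (limma adjusted p = 0.0102). Prim1 was lost as a mean of its probe sets (limma adjusted p = 0.0954), and Rfc3 with the title block (0.0639) and without PTC array 2 (0.0545). The list had 5 called members with the block and 3, 4 and 4 without PTC array 2, 3 or 4.

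Kif11, a spindle motor, stands for the mitosis genes. Promoters of such genes often carry the box CCAAT and the element TTTGAA, known as the CHR, through which their cell cycle timing is set. Its RefSeq promoter (GRCm38.p6, chr19:37376132-37376431, + strand, 250 bases before to 50 after the start, 5' to 3') is printed because it holds both, in capitals, each on the other strand (ATTGG and TTCAAA).
Kif11: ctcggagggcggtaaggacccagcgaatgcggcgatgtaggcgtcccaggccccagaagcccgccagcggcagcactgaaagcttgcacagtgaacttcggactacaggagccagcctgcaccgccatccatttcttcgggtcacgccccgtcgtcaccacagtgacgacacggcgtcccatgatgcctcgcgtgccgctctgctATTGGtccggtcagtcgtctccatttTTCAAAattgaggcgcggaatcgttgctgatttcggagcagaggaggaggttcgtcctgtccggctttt
Of 17 promoter records for the mitosis list, 15 hold CCAAT (88.2%) and 13 hold TTTGAA (76.5%), on either strand, against 37.4% and 17.9% of all promoters searched. For the replication list the shares were 60% and 10% of 20 records. These matches describe the letters of the windows and show no binding.

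Of 21 measured mitosis genes all had differences above 0, against 49.3% of all genes, and the median was 1.53. Called higher were 4 (19%, against 4.24% of all genes). Kif11 was at 5.96, 6.06, 5.64 and 6.31 in PTC and 5.84 to 8.38 in recurrent tumours (median 7.64), with array 6 the one within the PTC range. It rose by 1.53 ± 0.38 (limma adjusted p = 0.0214; 0.0626 to 0.0881 without PTC array 1, 2 or 3). Kif20a, a motor of the dividing midzone, rose by 2.27 ± 0.51 (limma adjusted p = 0.0127; 0.0506 and 0.0576 without PTC array 2 or 3). The checkpoint kinase Bub1 and cyclin A2 (Ccna2) were just under the threshold (limma adjusted p = 0.0456 and 0.0499), with rises of 2.36 ± 0.70 and 1.77 ± 0.54. Bub1 was lost with the title block (limma adjusted p = 0.0618), without any 1 PTC array and without recurrent array 1, 2, 4, 7, 8 or 9 (0.0633 to 0.153). Ccna2 was lost with the block (limma adjusted p = 0.0643), without any 1 PTC array and without any 1 recurrent array but array 6 (0.0507 to 0.166). Mki67, the proliferation marker, was not called (1.23 ± 0.62, limma adjusted p = 0.236).

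Array 6 stood apart in this list. Its mean over the mitosis genes was -0.87 relative to the PTC mean, that of array 5 was 0.44, and those of the other 7 recurrent arrays were 1.16 to 2.35. Without array 6, 18 mitosis genes were called, and among JK-titled arrays alone 20 were. The bare-number arrays against PTC gave 2. Without 1 PTC array the count was 1, 0, 0 and 2, and without recurrent array 1, 2, 4, 7, 8 or 9 it was 2. Of 17 G1 regulators, Ccne2, the cyclin E2 of the G1 to S step, rose by 1.89 ± 0.44 (limma adjusted p = 0.0155; 0.0622 and 0.0619 without PTC array 2 or 3). The D cyclin Ccnd3 fell by 0.93 ± 0.19 (limma adjusted p = 0.0083), as did Ccnd1. Of the G1 list 5.9% was thus called higher, close to the 4.24% of all genes, and 11.8% lower, against 6.61%.

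**Figure D5:**
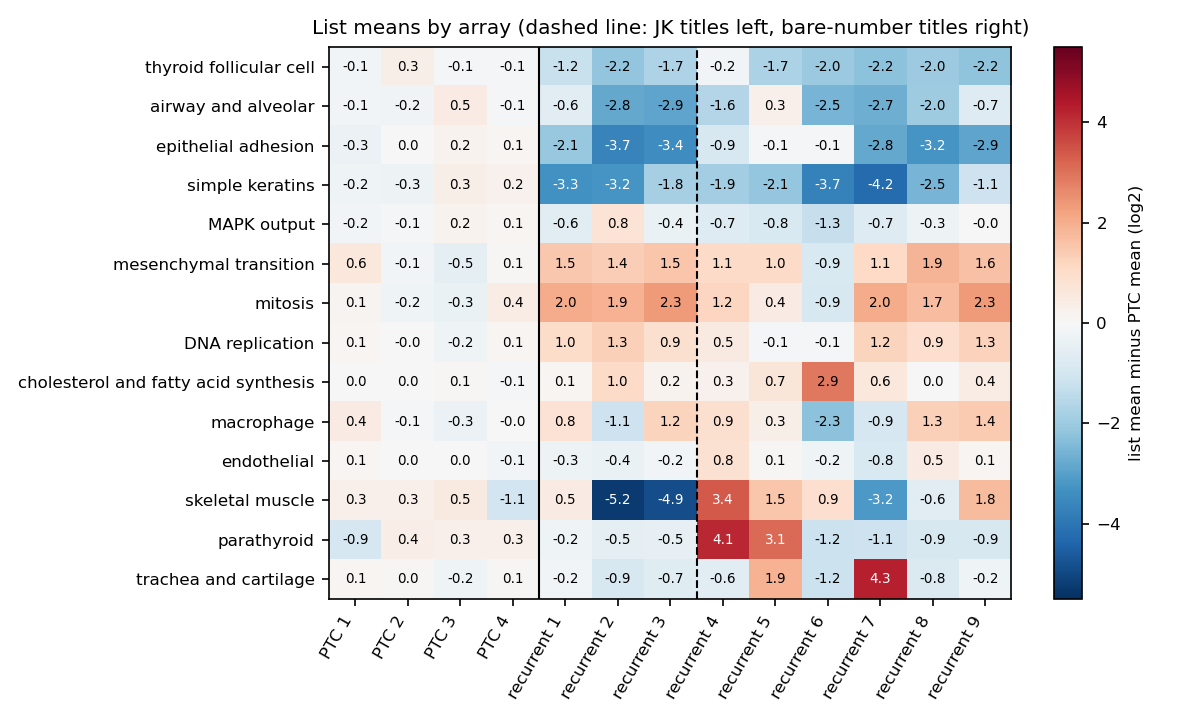
Mean over the measured members of 14 gene lists on each array, relative to the mean of the 4 PTC arrays (colour and printed value, log2). Recurrent array 6 stands apart in mitosis, mesenchymal transition and cholesterol synthesis, arrays 4 and 5 in parathyroid genes and array 7 in cartilage genes, while the 4 PTC arrays lie near 0 apart from array 4 in skeletal muscle and array 1 in parathyroid genes.

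Some genes of cholesterol synthesis rose in recurrent tumours. Of 16 measured genes of sterol and fatty acid synthesis, 4 rose (25%, against 4.24% of all genes), 12 were not called, and the median difference was 0.81. The mean over the list was highest on array 6, at 2.92 above the PTC mean. Sqle, an early oxygen-adding enzyme of the sterol branch, was at 7.40, 7.13, 7.32 and 6.99 in PTC and 8.13 to 13.25 in recurrent tumours (median 9.55). All recurrent arrays were above PTC, array 6 by the most, and the rise was 2.64 ± 0.70 (limma adjusted p = 0.0281). Fdps, which makes farnesyl diphosphate, rose by 2.49 ± 0.51 (limma adjusted p = 0.00744), with array 6 again highest at 11.56, but its other probe set differed by 0.00. The demethylase Cyp51 rose by 2.07 ± 0.35 (limma adjusted p = 0.00226) and Dhcr7, which makes the last step to cholesterol, by 1.72 ± 0.40 (limma adjusted p = 0.0157). With the title block Cyp51 alone of the 4 was called, and without PTC array 3 or 4 the count was 2. Sqle was lost without any 1 PTC array (limma adjusted p = 0.0675 to 0.0897) and with the block (0.187), Dhcr7 without PTC array 3 or 4 (0.0585 and 0.0648).

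Some energy genes were called. Of 17 genes of hypoxia and glycolysis, 2 rose (11.8%, against 4.24% of all genes) and 1 fell (5.9%, against 6.61%). Egln3 and the glycolytic kinase Pgk1 rose (Pgk1 by 1.14 ± 0.30, limma adjusted p = 0.0276). Hexokinase Hk1 fell by 1.14 ± 0.31 (limma adjusted p = 0.0341), while a second probe set of it differed by 0.09. Of 20 respiratory chain genes 2 rose (10%, against 4.24%). Cycs, cytochrome c, rose by 0.81 ± 0.22 (limma adjusted p = 0.031) and Atp5b, of the ATP synthase, by 0.79 ± 0.19 (limma adjusted p = 0.0196). Each of these 4 genes was lost with the title block, with limma adjusted p = 0.092 for Pgk1, 0.159 for Hk1, 0.234 for Cycs and 0.16 for Atp5b. Without 1 PTC array Pgk1, Hk1 and Cycs were lost in all 4 fits and Atp5b without PTC array 2, 3 or 4 (limma adjusted p = 0.0504 to 0.12). Hk1 was also lost without recurrent array 4, 8 or 9 and Cycs without array 9 (limma adjusted p = 0.0534 to 0.0568).

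Markers of other cells that a tumour-bearing gland can hold gave few calls outside the mast cell list, with large differences between single arrays. Of 10 measured mast cell genes 4 rose (40%, against 4.24% of all genes): Cpa3, the mast cell carboxypeptidase, by 1.86 ± 0.41 (limma adjusted p = 0.0109), the tryptase Tpsb2 by 1.41 ± 0.32 (limma adjusted p = 0.0123), and Cma1 and Mcpt4. Mcpt8 fell. Cpa3 was at 5.70, 5.75, 6.19 and 6.70 in PTC and 6.44 to 8.90 in recurrent tumours, with array 6 alone inside the PTC range. With the block 1 of the 4 was called, and without PTC array 1, 2 or 3 the counts were 2, 0 and 2. A second probe set of Tpsb2, a gene with a close copy, differed by -0.12.

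Of 20 macrophage genes 1 rose (5%, against 4.24% of all genes) and 19 were not called. It was Itgam, an integrin of myeloid cells, which rose by 2.19 ± 0.61 (limma adjusted p = 0.0362). The call was lost with the block, with the bare-number arrays, without any 1 PTC array and without recurrent array 1, 4, 8 or 9 (limma adjusted p = 0.0505 to 0.119). Lcn2, an iron-binding protein of neutrophils and stressed epithelium, fell by 3.53 ± 0.89 (limma adjusted p = 0.0219), down to 5.39 on array 7, and was lost with the block (0.11) and without any 1 PTC array (0.0587 to 0.0722). Cxcl15, a chemokine of lung epithelium, fell by 3.85 ± 0.48 (limma adjusted p = 0.000266), from 10.76, 8.97, 8.29 and 8.63 to between 4.56 and 7.08. The antigen-loading genes Tap1 and Tapbp fell by 0.86 ± 0.26 and 0.66 ± 0.18 (limma adjusted p = 0.0482 and 0.0314), yet other probe sets of each had the opposite sign in part (0.11 and 0.25). Both were lost with the block and without any 1 PTC array (limma adjusted p = 0.0672 to 0.175), Tap1 without any 1 recurrent array but 1 and 7 (0.051 to 0.0819), and Tapbp without array 9 (0.0529).

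Lists with no call by limma were C-cell (0 of 9, with 0 at an unadjusted p under 0.05), parathyroid (0 of 5, 0 unadjusted) and skeletal muscle (0 of 14, 0 unadjusted). The adipocyte (0 of 11, 1 unadjusted), endothelial (0 of 16, 1 unadjusted) and fibroblast and matrix (0 of 21, 5 unadjusted) lists had none either. Over all genes 10.9% were called and 25.5% had an unadjusted p under 0.05. A count of 0 in a list this short does not show that those cells were alike in both groups. The parathyroid hormone gene Pth was at 10.51, 10.77 and 10.13 on PTC arrays 2 to 4 but 4.65 on array 1, and at 14.76 and 14.58 on recurrent arrays 4 and 5 but 4.91 or less on the other 7. Relative to the PTC mean over the skeletal muscle list, recurrent arrays 2, 3 and 7 stood at -5.25 to -3.18 and array 4 at 3.36. Array 4 also had the highest Tg of the recurrent arrays, at 14.18. Array 1, next for Tg at 11.31, stood at 0.46 over the muscle list and -0.24 over the parathyroid list. Whether any of these signals came from neighbouring tissue in a sample was not tested, nor was any part of it in the differences between the groups.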

How the data were processed

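The authors deposited log2 intensities of 22690 probe sets. Per the submitters' processing notes they came from RMA in Partek, which corrects background, quantile-normalizes and then summarizes probes. RMA brings arrays to a common distribution, so a shift of all genes would not be seen, and no version is stated. The medians of single arrays ran from 7.38 to 7.57. Precision is limited by how many arrays there are.

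Names of probe sets came from GEO's platform annotation (20393 with 1 symbol, 691 with several, 1606 with none) and updated by gene identifier with RefSeq (20364 matched, 29 kept). Where a gene had several probe sets, the brightest on average across the 24 arrays stood for it. Replicate numbers only name arrays. Among the 78 pairs of arrays 0 were identical.

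The 13 arrays were fitted alone with limma 3.58.1 (R 4.3.3, data.table version 1.17.8), two-sided, with Benjamini-Hochberg adjustment over 12394 genes, called under 0.05. The step was tested on simulated data. Other steps used Python 3.11.15, pandas 2.3.3, NumPy 2.4.6, SciPy 1.17.1 and matplotlib 3.10.9. Named genes are among called genes the 15 that rose and the 15 that fell most, in each list at most 4 called members per direction, up to 2 uncalled members of a list, and a fixed set with Braf, Met, Hgf and Tg. The text names most of them and says where others were chosen after values were seen. The comparison, the lists and these choices were made with earlier results of these data known. Foxe1 was not analysed here, and 1 other gene is not reported here.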

Additional observations from a re-analysis of the deposited data

Results flagged for a closer look

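Among the genes named, 232 groups of values (1 gene in 1 group of arrays) were checked for an array far from the others of its group by Dixon's criterion, which sets apart about 5% of groups by chance, and 20 values stood apart. Of these 7 were on recurrent array 6. It was lowest for Sox2 (3.65, next 8.58), Cpe (9.84, next 12.20), Steap1 (5.92, next 8.39), Htra1 (7.98, next 10.27) and Ccna2 (7.04, next 9.05), and highest for Sqle (13.25, next 10.70) and Fdps (11.56, next 9.63). Recurrent array 2 was highest for Braf (11.14, next 7.14) and Spry4 (8.67, next 6.06). Recurrent array 4 was highest for Pax8 (7.70, next 5.77), Cdh16 (7.88, next 6.51) and Cycs (13.38, next 12.65).

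Recurrent array 5 was highest for Cxcl15 (7.08, next 5.52), recurrent array 7 lowest for Lcn2 (5.39, next 8.92), and recurrent array 8 highest for Hgf (8.08, next 6.73). In PTC, array 1 was lowest for Erbb2 (8.99, next 9.47), Spint2 (12.83, next 13.16) and Pth (4.65, next 10.13), and array 4 lowest for Cycs (11.41, next 11.81) and Slc34a2 (9.86, next 10.32).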

How the results depend on the processing

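Of 94 called genes that were named, 26 were called under every one of the 26 alternative settings that tested them. The setting limited to genes with a mean of at least 6 tested only 88 of the 94. A gene it left out was not counted as lost there. The 1345 calls (526 higher, 819 lower) became 2706 (1203 and 1503) in a fit of all 24 arrays and 2235 (1040 higher) among JK-titled arrays alone. They became 3431 (1593 and 1838) with array weights per group and 107 (4 and 103) against a minimum of 2-fold. With every probe set tested and each gene counted by its probe set of lowest p, there were 2060 (1016 higher). Taking the lowest p favours calls, and 0 of the 94 were lost there. Chosen after seeing the data, bare-number recurrent arrays against PTC gave 2387 (868 and 1519), and leaving out recurrent arrays 2, 4 and 6 gave 2103 (951 higher). Leaving out 1 array gave 609 to 2065 calls, 205 to 909 higher and 404 to 1173 lower. No paired analysis was possible because replicate numbers follow record order and pair nothing. The title series as a block gave 1139 calls (462 and 677), quantile normalization again 1438 and centring on medians 1192.

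Differences that turned sign between settings were all of genes not called. Braf gave 0.22 with the title series as a block and among JK-titled arrays. Slc5a5 gave 0.11 in both, 0.12 after quantile normalization, 0.030 after centring, 0.020 without recurrent arrays 2, 4 and 6, and -0.063 to 0.042 when 1 array was left out (above 0 without PTC array 4 or recurrent array 2, 5 or 7). Spry4 gave -0.32 with bare-number arrays, -0.014 without recurrent arrays 2, 4 and 6, and -0.17 (without recurrent array 2) to 0.36 when 1 array was left out. Egfr gave 0.029 with the block and among JK-titled arrays and 0.12 as a mean of probe sets, and Sftpc -0.018 (without recurrent array 7) to 0.36 when 1 array was left out. The causes of these changes were not tested. Apart from the settings, 5 of the 94 called genes that were named had another probe set of opposite sign.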

Other observations

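Gene groups not described above gave few calls. Of 17 T and NK cell genes Cd4 fell by 0.53 ± 0.15 (limma adjusted p = 0.0374), while a second probe set differed by 0.16, and of 9 B and plasma cell genes Cd79b fell by 1.81 ± 0.44 (limma adjusted p = 0.0177), with recurrent array 8 in the PTC range. Of 11 genes around interleukin-6 and Stat3, Il1rn, which blocks the interleukin-1 receptor, fell by 2.26 ± 0.63 (limma adjusted p = 0.0372). In the order given, 5.9%, 11.1% and 9.1% of these lists were called lower, against 6.61% of all genes. All 3 calls were lost with the title series as a block (limma adjusted p = 0.117 to 0.235) and without PTC array 1, 2 or 3 (0.0583 to 0.121). Cd4 and Il1rn were also lost without PTC array 4 (0.101 and 0.11), and without recurrent arrays 4 and 8 among others (0.051 to 0.0649).

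Limma called 0 of 15 interferon-induced genes (1 at an unadjusted p under 0.05) and 0 of 19 genes of folding in the endoplasmic reticulum (6 unadjusted). It called 0 of 16 matrix proteases and inhibitors (4 unadjusted), 0 of 10 hedgehog genes (0 unadjusted) and 0 of 17 Wnt and Notch genes (3 unadjusted). The shares over all genes were 10.9% called and 25.5% at an unadjusted p under 0.05. Cd74, the invariant chain of antigen presentation, was at -1.96 ± 0.70 (limma adjusted p = 0.0915), and the collagen gene Col1a1 at 1.58 ± 0.72 (limma adjusted p = 0.191).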
